A study of Homo sapiens with 12 samples.

Results

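The insulin-PI3K-FOXO pathway was followed through 9 genes in EndoC-βH3 cells, a human beta-like line made from fetal pancreas that carries hTERT and SV40 large T antigen, which a tamoxifen-activated CreER can cut out. The 9 genes were chosen by name, with earlier results of these data known: IRS1, IRS2, PIK3R1, AKT1, AKT2, MTOR, FOXO1, FOXO3 and FOXO4. Each matched 1 of the 35337 rows of the RNA table. The 12 libraries were 6 of cells labelled wild type and control, which were not given 4-OHT (4-hydroxytamoxifen), and 6 of cells labelled wild type in which senescence had been induced with 4-OHT for 3 weeks. All came from 1 line and all carried the transgenes at the outset, so the 4-OHT exposure, the loss of the transgenes and the arrest cannot be told apart. The titles carry a letter, A or B, taken as the batch; A held 2 libraries of each group and B held 4. The question was which genes of the pathway change in RNA level when these cells become senescent.

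Insulin and insulin-like growth factors bind receptor tyrosine kinases, which phosphorylate the docking proteins IRS1 and IRS2. These recruit PI3-kinase through its regulatory subunits such as p85α (PIK3R1), the lipid made by the kinase brings AKT to the membrane, and AKT activates mTOR complex signalling and phosphorylates FOXO transcription factors, which are then kept out of the nucleus. Beta cells both secrete insulin and carry this pathway, and IRS2 and FOXO1 are known for their roles in beta-cell mass and identity. The pathway is controlled largely by phosphorylation and by the position of the proteins in the cell, none of which RNA levels measure.

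RNA was read from the 3′ end of each transcript (CEL-seq2), with 8873569 to 17106776 reads per library in batch A and 4672924 to 7063264 in batch B. The 9 genes held between 24 and 2433 reads per library. Values are normalised read counts, in which reads were divided by 1 size factor per library. The treatment was visible in the same libraries: the p53 target CDKN1A rose (log2 fold change 3.92), the proliferation gene MKI67 fell (-2.83) and INS rose (2.23). All 15 beta-cell markers of the list had reads in every library, 5 of them called higher and 1 lower, and their sum ran from 526643 to 661270 in non-senescent and 669940 to 868526 in senescent libraries. Most of that sum was CHGA, at 478600 to 621389 in non-senescent and 474757 to 772538 in senescent libraries. CHGA was not called (log2 fold change 0.20). Of the markers of other islet hormones, SST (somatostatin) was also abundant, at 159785 to 287479 in non-senescent and 114932 to 142626 in senescent libraries, and GCG (glucagon) stood at 2463 to 5461 and 507 to 2985. Both fell. INS held 11021 to 34331 in non-senescent libraries, so SST was above it in each. In senescent libraries INS was above SST in batch A (167961 to 185508) and below it in batch B (49685 to 67918). Summed over the 4 markers of other islet hormone cells, the range was 164340 to 290369 in non-senescent and 115463 to 145611 in senescent libraries. The summed acinar markers (143 to 251 in senescent against 33.9 to 58.4 in non-senescent libraries) were higher, through CPA1, and the summed duct markers (79.9 to 160 against 240 to 379) were lower, through KRT19. Of the leukocyte, stromal and endothelial markers, PTPRC held 2.10 to 5.44 in senescent and 3.89 to 26.1 in non-senescent libraries, the 3 stromal markers summed to 9.66 to 46.9 against 6.36 to 123 and the 2 endothelial markers to 2.49 to 14.5 against 3.97 to 16.2. PDGFRB and VWF had no reads. The part of these shifts in the results below was not tested. In bulk RNA, fewer cells of a type and less RNA per cell cannot be told apart.

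The promoters of the docking proteins and of the kinases are shown first, because within each pair 1 gene rose in senescent cells and its paralog did not. The sequences are from RefSeq (GRCh38.p14) and run 5′ to 3′ on the gene's own strand, from 250 bases before the start of transcription to 50 bases after it. All 4 lie on the minus strand. Capitals mark each match, on either strand, to 1 of 10 motifs: the forkhead motif GTAAACA, the insulin response sequence CAAAACA, the MAF half-site TGCTGAC, the E2F forms TTTNGCGC and TTTCCCGC, the cyclic AMP element TGACGTCA, the GC box GGGCGG, the CCAAT box, the TATA form TATAAA and the E-box CACGTG. Where 2 matches overlap or touch, they appear as 1 run of capitals.
IRS1, chr2:226799771-226800070: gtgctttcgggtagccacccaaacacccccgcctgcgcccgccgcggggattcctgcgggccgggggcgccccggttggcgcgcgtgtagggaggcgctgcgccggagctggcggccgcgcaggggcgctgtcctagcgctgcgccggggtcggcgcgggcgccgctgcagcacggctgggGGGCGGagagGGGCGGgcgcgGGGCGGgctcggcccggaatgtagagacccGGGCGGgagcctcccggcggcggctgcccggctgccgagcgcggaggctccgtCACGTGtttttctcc
IRS2, chr13:109786534-109786833: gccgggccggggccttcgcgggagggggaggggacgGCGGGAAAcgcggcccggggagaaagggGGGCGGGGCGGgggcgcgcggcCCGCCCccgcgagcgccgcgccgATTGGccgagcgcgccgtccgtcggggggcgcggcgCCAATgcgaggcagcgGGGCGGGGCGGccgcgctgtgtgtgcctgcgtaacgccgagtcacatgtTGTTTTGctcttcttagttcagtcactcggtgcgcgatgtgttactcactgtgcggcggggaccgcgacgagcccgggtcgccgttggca
AKT1, chr14:104795699-104795998: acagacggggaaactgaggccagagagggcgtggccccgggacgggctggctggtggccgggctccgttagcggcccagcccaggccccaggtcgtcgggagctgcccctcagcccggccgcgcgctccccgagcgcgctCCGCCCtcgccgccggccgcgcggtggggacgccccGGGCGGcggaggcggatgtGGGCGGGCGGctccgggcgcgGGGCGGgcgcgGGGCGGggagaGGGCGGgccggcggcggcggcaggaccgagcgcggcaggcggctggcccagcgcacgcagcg
AKT2, chr19:40285296-40285595: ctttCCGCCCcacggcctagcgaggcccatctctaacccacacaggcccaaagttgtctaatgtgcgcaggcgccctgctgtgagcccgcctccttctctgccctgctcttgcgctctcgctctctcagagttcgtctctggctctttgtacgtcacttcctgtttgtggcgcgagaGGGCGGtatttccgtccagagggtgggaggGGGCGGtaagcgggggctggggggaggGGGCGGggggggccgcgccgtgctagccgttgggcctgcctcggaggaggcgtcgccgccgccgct

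The IRS pair differed in which of the 10 motifs its promoters held, and the AKT promoters shown differed only in the number of GC boxes. The IRS2 promoter carried the insulin response sequence, on the reverse strand, 34 to 40 bases before the start, a form that 4.92% of all 35116 promoters in the RefSeq table held. It also carried 2 CCAAT boxes (present in 34.6% of promoters), an E2F form TTTCCCGC on the reverse strand (1.63%) and 5 GC boxes (45.0%). The IRS1 promoter held no insulin response sequence, CCAAT box or E2F form, and had 4 GC boxes and an E-box 35 to 40 bases after the start (7.26%). The AKT1 and AKT2 promoters shown, the upstream-most of 2 for each gene, held GC boxes alone among the 10 motifs, 7 and 4. The second AKT1 promoter held 1 GC box, and the second AKT2 promoter held 1 GC box and 1 CCAAT box. Of the other members, FOXO4 held the forkhead motif 23 to 29 bases after its start (3.42%). Across the upstream-most promoter of each of the 9 genes the GC content ran from 56.3% (FOXO4) to 83.3% (AKT1), beside a median of 58.7% over all promoters. A match is a run of letters and not a measured binding site.

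Taking all 9 genes, 3 rose in senescent cells by the limits used here, an adjusted p under 0.1 and a change over 1.5-fold: IRS1, AKT1 and FOXO3. None fell by those limits. The share of 33.3% stands beside 23.4% of the 13847 genes tested that were called in either direction, 11.6% of them called higher and 11.8% called lower. That even split, 1605 and 1632 genes, became 1226 and 2090 when libraries were scaled to equal totals, under which the same 3 of the 9 genes were called. An adjusted p under 0.1 without the limit on fold was reached by 7 of the 9 genes, against 45.5% of all tested genes, and those with a smaller change were FOXO1, FOXO4, PIK3R1 and, downwards, AKT2. IRS2 and MTOR reached neither limit. In 6 of the 9 genes the senescent and non-senescent values were separate in A and separate in B, with the same sign, as held for 23.8% of all tested genes. The median log2 fold change was 0.43 over the 9 genes and 0.012 over all tested genes.

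**Figure D1:**
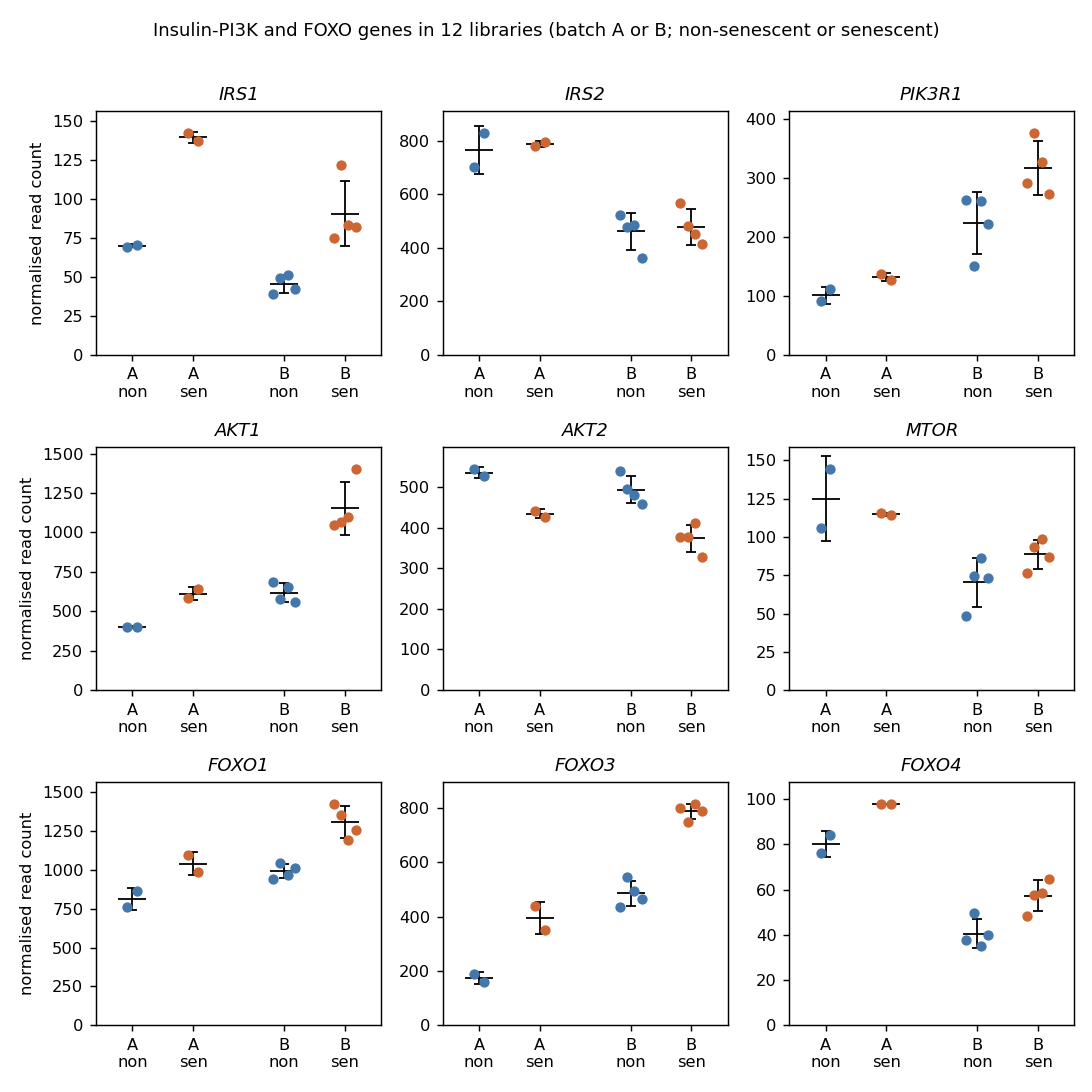
Normalised read counts of the 9 genes, with 1 panel per gene and its own axis from 0; points are libraries, in blue non-senescent (non) and in orange senescent (sen), split by batch A (2 per group) and B (4 per group), and bars give the mean and SD. The groups are apart within both batches for IRS1, PIK3R1, AKT1, AKT2, FOXO1 and FOXO3, and overlap in at least 1 batch for IRS2, MTOR and FOXO4.

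Of the docking proteins, IRS1, the first receptor substrate described, rose by close to 1 on the log2 scale. In batch A it held 69.5 and 70.7 normalised read counts in the non-senescent libraries and 142 and 137 in the senescent ones. In batch B the non-senescent libraries held 39.2, 49.6, 51.1 and 42.2, and the senescent ones 75.1, 122, 83.6 and 82.2. Every senescent library of a batch thus stood above every non-senescent library of it, with B2 the highest senescent library of batch B. The means were 53.7 ± 13.5 and 107 ± 30.2 (SD, n = 6), and the log2 fold change was 0.97 (SE 0.14, 95% confidence interval 0.66 to 1.27; limma adjusted p 4.6e-05), 0.98 in A and 0.96 in B. IRS1 lies on chromosome 2 (226731312 to 226799820, minus strand, GRCh38).

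IRS2, the docking protein best known for sustaining beta-cell mass, gave no such difference. Its values in batch A were 703 and 828 in non-senescent and 781 and 795 in senescent libraries. Batch B had 523, 479, 484 and 362 in non-senescent and 568, 482, 449.8 and 414 in senescent libraries. The groups overlapped in both batches. The estimate was 0.05 ± 0.10 on the log2 scale (SE; adjusted p 0.719), and its interval, from -0.16 to 0.26, leaves out a change of 1.5-fold in either direction. IRS2 is on chromosome 13 (109752695 to 109786583, minus strand), as is FOXO1.

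The difference between the paralogs was tested on their ratio within each library, which the scaling of libraries does not move. The ratio of IRS2 to IRS1 was 10.5 ± 1.75 in non-senescent and 5.54 ± 1.18 in senescent libraries (SD, n = 6). Its lowest non-senescent value was 8.56 and its highest senescent value 7.56. On the log2 scale the ratio was lower in senescent cells by 0.92, -0.94 in A and -0.91 in B (two-sided exact permutation test within batch, p = 0.0048, the smallest that the 420 arrangements allow; adjusted over 5 ratios, 0.0079). The last 1000 bases of their transcripts share 0 words of 31 bases.

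PIK3R1 encodes p85α, the regulatory subunit that holds the catalytic subunit at the docking proteins. Batch A gave 91.1 and 111 in non-senescent and 137 and 127 in senescent libraries. In batch B the non-senescent values were 262, 150.1, 262 and 221 and the senescent ones 291, 376, 327 and 273. The groups were apart in both batches, by a small margin in B. The log2 fold change of 0.48 (SE 0.14, adjusted p 0.0099) had an interval from 0.19 to 0.76 and did not reach the limit on fold. PIK3R1 is on chromosome 5 (68215740 to 68301821, plus strand).

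The kinases AKT1 and AKT2 moved in opposite directions. AKT1, the widely expressed isoform linked to growth and survival, held 403 and 397 in non-senescent and 582 and 639.6 in senescent libraries of batch A. In batch B it held 685, 579.6, 652 and 558 in non-senescent libraries, and 1045, 1064, 1099 and 1405 in senescent ones. Its values in the groups did not overlap in either batch, and the library B4 was the highest. The log2 fold change was 0.80 (SE 0.09, 95% confidence interval 0.61 to 0.99; limma adjusted p 2.3e-06), 0.61 in A and 0.89 in B, and without senescent B4 it was 0.72. AKT1 is on chromosome 14 (104769349 to 104795751, minus strand). A gene annotated on the opposite strand, ENSG00000258430, overlaps the last 1000 bases of its transcripts, and whether the counting used the strand is not given in the sources used here.

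AKT2, the isoform most closely tied to insulin-stimulated glucose uptake, was lower in senescent cells. Its non-senescent libraries held 545 and 526 in batch A and 539, 496, 481 and 458 in batch B. The senescent libraries held 442 and 427 in A and 377, 376, 412 and 329 in B. The 2 sets did not overlap, even with the batches pooled. The log2 fold change was -0.37 (SE 0.08, interval -0.53 to -0.21; adjusted p 0.0011), -0.30 in A and -0.40 in B, which is short of 1.5-fold. AKT2 is on chromosome 19 (40230317 to 40285536, minus strand).

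The ratio of AKT2 to AKT1 therefore fell further than either gene moved alone. Per library it ran from 1.32 to 1.35 in batch A and 0.738 to 0.855 in batch B without senescence. In senescent libraries it ran from 0.668 to 0.759 in A and 0.234 to 0.375 in B. The ratio was lower by 1.17 on the log2 scale (-0.91 in A, -1.30 in B; exact permutation p = 0.0048, adjusted 0.0079). This was the largest change among the 5 ratios tested. The last 1000 bases of AKT1 and AKT2 transcripts share 4 words of 31 bases, among 3741 and 11198 words.

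MTOR, the kinase shared by mTOR complexes, did not differ beyond its spread. In batch A, 106 and 145 in non-senescent libraries stood beside 115 and 114 in senescent ones. In batch B, 48.2, 74.3, 86.2 and 73.3 stood beside 76.3, 93.4, 98.4 and 87.2. The groups overlapped in both batches. The log2 fold change was 0.20 (SE 0.16, interval -0.13 to 0.53; adjusted p 0.344), with -0.11 in A and 0.35 in B, and no library held more than 257 reads of it. MTOR is on chromosome 1 (11106535 to 11262556, minus strand).

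FOXO factors drive stress-resistance, metabolic and cell-cycle-arrest genes when insulin signalling is low. Of the 3 among the 9 genes, FOXO3 moved furthest. In batch A it held 189 and 158 in non-senescent libraries and 438 and 353 in senescent ones. In batch B the values were 437, 547, 494 and 466 against 799.8, 750.4, 815 and 789.7. The lowest senescent library stood above the highest non-senescent library of its batch by a wide gap in both. The log2 fold change was 0.86 (SE 0.10, 95% confidence interval 0.65 to 1.07; limma adjusted p 2.8e-06), 1.18 in A and 0.70 in B (adjusted p of the difference 0.183). Batch A libraries of both groups lay below those of batch B, and without the batch term the adjusted p was 0.124. FOXO3 is on chromosome 6 (108559835 to 108684774, plus strand).

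FOXO1, the family member most studied in beta cells, was higher by a smaller amount. Its values were 761 and 861 in non-senescent and 1092 and 986 in senescent libraries of batch A. In batch B the non-senescent libraries held 939.6, 1045, 966 and 1008 and the senescent ones 1421, 1354, 1191 and 1256. The groups were apart in both batches. The log2 fold change of 0.38 (SE 0.07, adjusted p 2.4e-04) was 0.36 in A and 0.40 in B, and its interval, from 0.24 to 0.53, ends below the 1.5-fold limit of 0.58. FOXO1 is on chromosome 13 (40555667 to 40666641, minus strand), and an unnamed gene on the same strand, ENSG00000288542, overlaps the end of its transcripts.

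FOXO4 had the fewest reads of the 9 genes in any 1 library, 24. Batch A held 76.1 and 84.2 in non-senescent and 97.9 and 97.8 in senescent libraries. Batch B held 37.6, 49.6, 35.1 and 39.8, and 48.5, 57.7, 58.4 and 64.8. Senescent B1 fell below non-senescent B2, so the groups overlapped in batch B. The log2 fold change was 0.43 (SE 0.15, interval 0.12 to 0.73; adjusted p 0.028). FOXO4 is on chromosome X (71095851 to 71103532, plus strand).

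Within libraries, FOXO3 gained on FOXO1. The log2 ratio of FOXO3 to FOXO1 was higher in senescent cells by 0.48 (0.82 in A, 0.30 in B; exact permutation p = 0.0048, adjusted 0.0079). For FOXO4 to FOXO1 the difference was 0.04, beside an SD of 0.19 within group and batch (exact permutation p = 0.714, adjusted 0.714). Against FOXO3, FOXO4 was lower by 0.44 (-0.89 in A, -0.21 in B; exact permutation p = 0.024, adjusted 0.030), and within batch B alone the adjusted p was 0.179. No 31-base word was shared between the last 1000 bases of any pair of these genes.

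**Figure D2:**
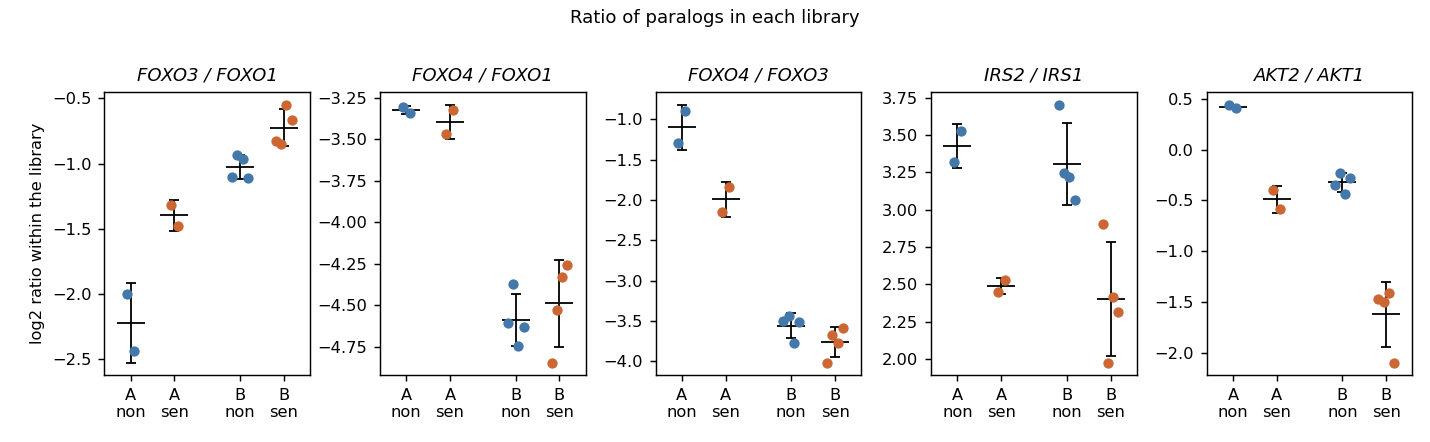
Log2 ratio of paralogs within each library, in blue non-senescent (non) and in orange senescent (sen), by batch A and B, with the mean and SD as bars; axes do not start at 0. In IRS2/IRS1 and AKT2/AKT1 the senescent libraries lie below the non-senescent ones in each batch, in FOXO3/FOXO1 above them, and in FOXO4/FOXO1 they overlap.

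The senescence change did not pass the test of a difference between batches for any of the 9 genes, where 4.21% of all tested genes passed (limma interaction, adjusted p under 0.1). Of the 9, FOXO3 had the smallest adjusted p, 0.183, and AKT1 followed with 0.489. With 2 libraries per group in batch A, differences in size between the batches were measured with little precision.

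**Figure D3:**
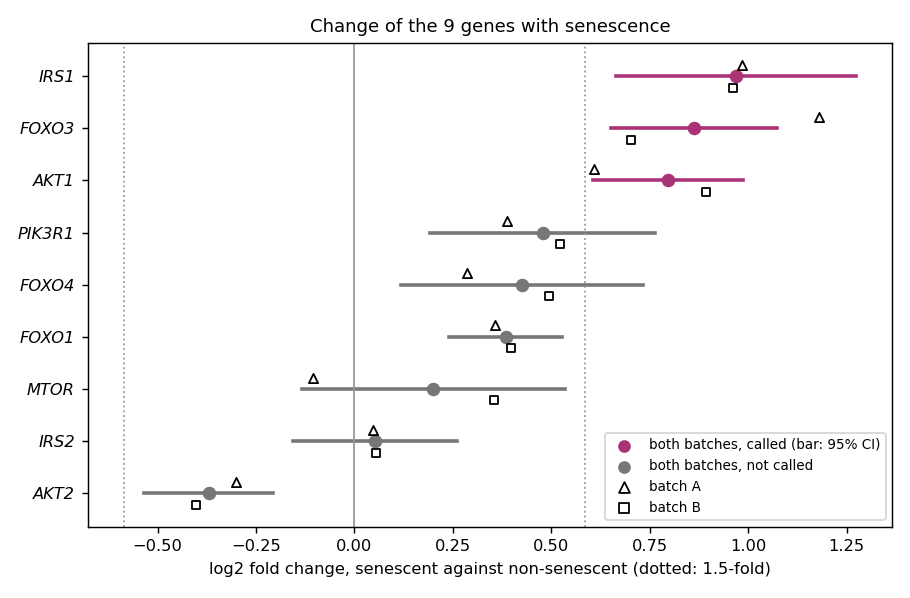
Log2 fold change of the 9 genes, senescent against non-senescent; filled circles with bars are the estimate over both batches and its 95% confidence interval, triangles batch A and squares batch B, and dotted lines mark 1.5-fold. IRS1, FOXO3 and AKT1 (purple) passed both limits, and AKT2 is the 1 gene of the 9 with a negative estimate.

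Around the 9 genes, a list of 93 other genes of the pathway was read from the same fit, by role. Of these, 78 were tested, and 26 were called, 19 higher and 7 lower (13 and 9 with equal library totals). Of the tested ones 33.3% were called, beside the 23.4% of all genes. A further 24 had an adjusted p under 0.1 with a smaller change, and 28 had neither. Their median log2 fold change was 0.22. Untested genes had too few reads or, for 1, no row under its symbol; INSRR, IRS4 and SOCS3 had 0 reads in all 12 libraries.

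At the cell surface, all 3 receptors that could be tested were called higher, as were 11.6% of all tested genes. The insulin receptor INSR went from 292 ± 33.3 to 446 ± 55.0 (SD, n = 6), a log2 rise of 0.61 (SE 0.10; adjusted p 1.1e-04), and the groups were apart in both batches. IGF1R rose by 0.83, and more in batch B, where it held 154 to 168 without and 300.2 to 335 with senescence, than in batch A, where it held 631 and 639.8, and 797 and 968 (0.47 in A, 1.02 in B, with an adjusted p of 0.086 for the difference). IGF2R, which binds IGF2 for degradation, rose by 0.59, of which 0.10 in A and 0.83 in B. This was barely past the 1.5-fold limit (0.5856 against 0.5850), and its groups overlapped in batch B. None of the 4 other adaptors tested and none of the 3 receptor inhibitors was called. Those nearest to the limits were the adaptor SH2B1 (0.36, adjusted p 0.049) and the inhibitor GRB14 (0.58, adjusted p 0.062).

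Among PI3-kinase subunits other than PIK3R1, 3 of 7 tested rose (42.9%, beside 11.6% of all tested genes called higher). None of these 3 was a catalytic partner of p85α. PIK3C2B, a class II enzyme, rose by 1.58 (SE 0.23, adjusted p 2.9e-05), from 18.6 to 87.4 over the non-senescent libraries to 107 to 238 over the senescent ones. PIK3C2A, also class II, rose by 0.59, of which 0.11 in A and 0.83 in B. PIK3R2, which encodes p85β, rose by 0.59 over both batches, but its levels differed between them: 753 to 786 in batch A in both groups, and 16.6 to 42.7 without and 46.0 to 59.5 with senescence in batch B. The catalytic subunit PIK3CA had a log2 fold change of 0.06 (SE 0.16) and PIK3CB of 0.54 (SE 0.26, adjusted p 0.106). PIK3CD, another catalytic subunit, was too low to be tested, with 0 to 3 reads per non-senescent and 3 to 9 per senescent library. Its normalised values were apart within both batches, at counts this low. Of 4 further kinases tested, SGK2, a relative of AKT, rose by 1.53 from 2.48 to 8.77 up to 13.5 to 28.6.

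Of 8 tested brakes on the pathway 2 rose (25%, beside 11.6% of all tested genes called higher). PIK3IP1, an inhibitor of the catalytic subunit, had 0 to 6 reads per non-senescent library and 10 to 14 per senescent library (log2 fold change 2.37, adjusted p 7.7e-04). INPP4B, a phosphatase of the PI3-kinase product's derivative, rose by 0.74, of which 0.06 in A and 1.09 in B. Of the TSC complex and RHEB, which join AKT to mTOR complex 1, the TSC subunit TBC1D7 fell by 0.59 and the 3 others were not called.

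The mTOR branch held calls both among genes known as its inhibitors and among its activators. Of 7 tested complex members 1 was called, DEPTOR, which binds and inhibits mTOR, with a rise of 0.96 (SE 0.34, adjusted p 0.034). DEPTOR had 4 to 20 reads per non-senescent and 21 to 47 per senescent library. The groups overlapped in batch B, and the call was lost in batch B alone and without the batch term. Of 8 tested inputs 4 were called, all higher (50%, beside 11.6% of all tested genes called higher). They were the sestrins SESN1 (1.63, SE 0.21, adjusted p 7.3e-06), SESN2 (0.61) and SESN3 (1.07), which restrain mTOR complex 1 under stress or low leucine, and RRAGB (0.71), a Rag GTPase that recruits it to the lysosome. SESN1 held 19.6 to 41.1 in non-senescent and 68.5 to 120.0 in senescent libraries. SESN3 rose by 0.28 in A and 1.46 in B (adjusted p of the difference 0.044). Its groups overlapped in batch A, and it was not called in batch A alone. The groups of RRAGB overlapped in batch B. Of 7 tested outputs 1 was called, EIF4EBP1, the translation repressor that mTOR complex 1 inactivates. It fell by 0.95 (-0.36 in A, -1.25 in B), and its groups overlapped in batch A. EIF4EBP1 was not called in batch A alone or without the batch term.

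Of 6 tested AKT substrates, FOXO6, the fourth FOXO gene, rose by 2.11 (SE 0.22, adjusted p 7.2e-07), the largest FOXO change. It had 3 and 4 reads in the non-senescent and 46 and 31 in the senescent libraries of batch A. In batch B its normalised values were 31.6, 20.6, 26.3 and 21.1, and 86.0, 89.2, 92.7 and 95.9. TBC1D1, a Rab GTPase-activating protein, fell by 0.60.

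Genes often described as FOXO targets went both ways, with 4 called higher and 4 lower of 17 tested. That share of 47.1% stood beside 23.4% of all tested genes, 11.6% called higher and 11.8% called lower. CAT, the peroxide-degrading enzyme catalase, rose from 343 ± 52.5 to 581 ± 97.6 (SD, n = 6), by 0.75 on the log2 scale (SE 0.10; adjusted p 1.0e-05). PDK4, which inhibits pyruvate dehydrogenase, rose by 1.39, the death ligand TNFSF10 (TRAIL) by 1.41 and the mitochondrial kinase PINK1 by 0.59. Those that fell were BCL2L11, which encodes the pro-apoptotic BIM, with -1.04 (SE 0.28, adjusted p 0.0066), the coactivator PPARGC1A with -1.70, the IGF-binding protein IGFBP1 with -0.94 and KLF15 with -0.70. PPARGC1A had only 2 to 50 reads per non-senescent and 0 to 10 per senescent library (SE 0.59). Its groups overlapped in batch B, and it was not called in batch B alone or without the batch term. The same held for IGFBP1, which had 3 to 78 reads per library. KLF15 fell in batch A, from 108 and 133 to 29.6 and 23.6, and stood at 941 to 1113 and 1006 to 1053 in batch B. Whether FOXO proteins act on any of these genes here was not measured.

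**Figure D4:**
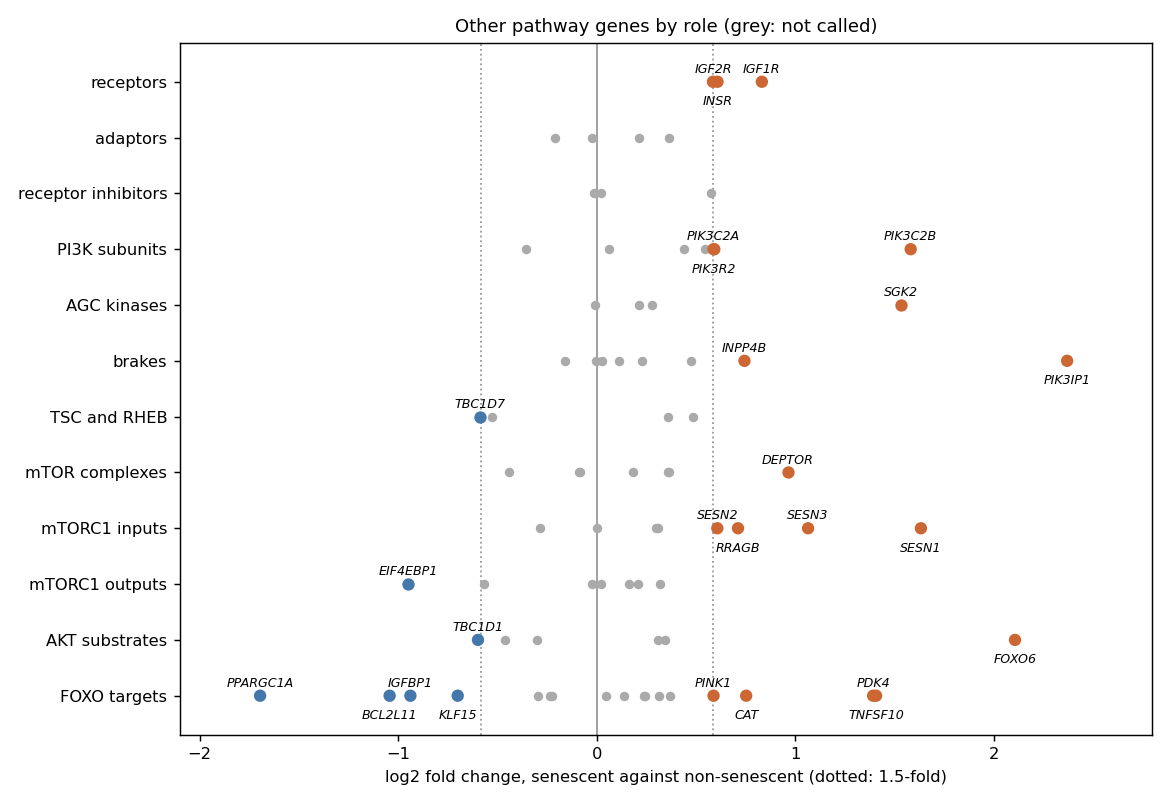
Log2 fold change, senescent against non-senescent, of the 78 tested pathway genes outside the 9, in 1 row per role; orange points were called higher, blue called lower, grey not called, and dotted lines mark 1.5-fold. The 3 receptors and 4 mTORC1 inputs called are all higher, whereas the FOXO targets hold 4 higher and 4 lower calls. Of all tested genes, 11.6% were called higher and 11.8% lower.

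Several of these pathway calls lay at the limit on fold. The calls of 11 of the 26 genes were lost when 1 library or another was left out: INSR, IGF2R, PIK3R2, PIK3C2A, TBC1D7, RRAGB, SESN2, TBC1D1, KLF15, IGFBP1 and PINK1. Of these, IGFBP1 stayed past the limit on fold in all 12 such fits (-1.18 to -0.80). It lost its call on the limma adjusted p, which reached 0.107. For KLF15, which fell in batch A and not in B, the limma adjusted p reached 0.122. PIK3C2B, SGK2, SESN1, FOXO6, CAT, PDK4 and TNFSF10 were called under each of the alternatives that tested them.

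The genes whose values over the 12 libraries lay closest to each called member were found by the root mean square difference of log2 values centred within batch, among 11681 other genes with a mean of at least 20. For FOXO3 these were TSPAN33 (0.12), STX1A (0.13) and ZSCAN18 (0.13), where the median gene lay at 0.53. Nearest to IRS1 were PPIP5K1 (0.14), BCL2L2 (0.15) and NBAS (0.15), with the median gene at 0.57. AKT1 was matched by TM7SF2 (0.088), APLP1 (0.10) and ARID3A (0.11), with the median at 0.49. FOXO1 was matched by DDX5 (0.064), LAMB1 (0.072) and TMEM59 (0.080), with the median at 0.35. The measure follows both the change with senescence and the spread between libraries, and with 12 libraries and 2 groups many genes come close.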

How the data were processed

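RNA of 12 EndoC-βH3 samples was analysed. By the paper's methods and the submitters' processing notes, the authors used Cutadapt for trimming, Salmon 0.13.1 with GRCh38 for quantification and DESeq2 for normalisation; the handling of molecular identifiers and of strand is not given in the sources used here, and reads need not be independent molecules. The deposited signal is reads divided by 1 size factor per library; 100% of 196021 non-zero values were whole multiples of the smallest (tolerance 0.01 reads), so reads were recovered. The deposited log2 fold changes and errors, the test score and the p-values are the authors' DESeq2 output and were not used.

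The main test was limma 3.58.1 (R 4.3.3, trend) on log2(value + 1), which understates changes of low genes, for 13847 genes with a mean of at least 5, with batch and group as terms. Calls needed an adjusted p (Benjamini-Hochberg) under 0.1 together with a change over 1.5-fold. Batch by group interaction used the same limit on adjusted p. Ratios of paralogs were tested by exact permutation within batch, adjusted over 5 ratios. edgeR 4.0.16 and DESeq2 1.42.0 on the recovered reads were alternatives. The tests were checked on simulated data. Labels do not name separate cultures, so p-values measure the spread between these samples of 1 line, which may be technical.

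The text names the 9 genes, every called gene of the pathway list and, for a role without a call, the gene with the smallest p; for each called member and FOXO1 the 3 nearest genes; and INS, CDKN1A and MKI67. PIK3CA and PIK3CB, and the markers and untested genes, were named after their values were seen. Counts are over the full lists, and a few listed genes are not reported here by name. The 9 genes and the lists were chosen with earlier results of these data known. Positions are from GENCODE v44 (GRCh38), matched by symbol.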

Additional observations from a re-analysis of the deposited data

Results flagged for a closer look

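AKT1 in senescent library B4 stood apart from the other senescent libraries of batch B, at 1405 normalised read counts against 1045 to 1099 (gap over range 0.850, limit 0.829). It was the 1 gap past the limit among 36 groups examined over the 9 genes, and chance alone passes about 1 group in 20.

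Of 38 named genes examined for this, 5 changed by unequal amounts in the batches (limma interaction, adjusted p under 0.1), none of them among the 9. Over all tested genes the share was 4.21%. Most of the 38 were named because they were called in these same data, so the 5 give no rate for the pathway. The difference, B minus A on the log2 scale, was 0.55 for IGF1R (adjusted p 0.086), 1.17 for SESN3 (0.044) and 2.16 for KLF15 (6.8e-06), where KLF15 had a log2 fold change of -2.14 in A and 0.02 in B. It was 2.60 for CDKN1A (adjusted p 0.0019) and 0.94 for MKI67 (adjusted p 0.022). KLF15 also stood at 108 and 133 normalised read counts in the non-senescent libraries of A and at 941 to 1113 in those of B.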

How the results depend on the processing

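IRS1, AKT1 and FOXO3 were called in all 12 fits that left out 1 library and under the other alternatives (pseudocounts of 0.1 and 8, no filter or a filter at 20, TMM or same-total scaling, each batch alone, a replicate block, edgeR, DESeq2), except that FOXO3 was not called without the batch term (adjusted p 0.124), which left 2 of the 3. The same term moved the calls from 3237 to 2143 genes and the pathway calls from 26 to 12. IRS2, which was not called, changed sign with same-total scaling (-0.055), without non-senescent B4 (-0.020) and without senescent B1 (-0.0027), over a range of -0.020 to 0.094 when a library was left out, and MTOR in batch A alone (-0.11). KLF15 turned to 0.020 in batch B alone. Same-total scaling moved the median of all genes to -0.091, so AKT2 (-0.48) and the rises read 0.10 lower under it. Leaving out 1 library gave 3 calls among the 9 each time, 21 to 25 pathway calls and 3142 to 3277 calls in all. Of the 26 pathway genes, 14 lost their call without the batch term, 13 in batch A alone, 5 in batch B alone and at most 6 under any other alternative here.

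The 583 genes with an interaction became 169 to 743 over the fits that left out a library. The lowest counts, 261 without non-senescent A1, 175 without non-senescent A2, 183 without senescent A1 and 169 without senescent A2, each rest on a single batch A library for 1 group, assumed to vary like the others. None of the 9 genes was among them in these or the 6 other alternatives run for this count.

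The ratios of IRS2 to IRS1 and AKT2 to AKT1 passed under every alternative. Permuting over all 12 samples without regard to batch ended the call of FOXO3 to FOXO1 (0.48, adjusted p 0.245) and of FOXO4 to FOXO3 (-0.44, adjusted p 0.649). The latter was also lost in batch B alone (-0.21) and in 4 of 12 fits that left out a library, without non-senescent B1, B2 or B4 or senescent B1 (-0.51 to -0.33 over the 12 fits, adjusted p up to 0.060). FOXO4 to FOXO1, not called, turned to -0.0051 at a pseudocount of 8 and ranged from -0.014, without senescent B4, to 0.11 when a library was left out.

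Same-numbered samples did not deviate together (r from -0.051 to 0.016, and 0 of 6 correlated best with its own number). In batch A, A1 and A2 give the same r by construction, because each group has 2 libraries there. The check showed no pairing by number and cannot exclude one. With a replicate block, 3211 genes were called, 3 of the 9 and 26 of the pathway list, and no call of the 9 genes, the ratios or the named pathway genes changed (each called ratio had an adjusted p of 0.039 over 64 sign patterns). Counts limit the lowest genes: 1 read was worth 0.449 to 1.51 normalised counts.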

Other observations

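Genes described here were named after their values were seen. In 8 pathway genes outside the calls the groups did not overlap within either batch although the change was under 1.5-fold. With the called genes counted, this held for 23 of the 78 tested pathway genes, beside 23.8% of all tested genes. RHEB, the GTPase that activates mTOR complex 1, stood at -0.53 on the log2 fold scale (SE 0.08; limma adjusted p 2.9e-05), and TSC2, the subunit that switches RHEB off, at 0.49 (SE 0.11; adjusted p 0.0025). EIF4EBP2, a relative of EIF4EBP1, stood at -0.57 (SE 0.08), and MLST8, a subunit of both mTOR complexes, at -0.44 (SE 0.12). The others were GSK3A (-0.30), PIK3R3 (-0.36), RRAGD (0.30) and BNIP3 (0.24).

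Summed over FOXO1, FOXO3, FOXO4 and FOXO6, the mean normalised read count was 1067 in non-senescent and 1552 in senescent libraries of batch A, a ratio of 1.45, and 1541 and 2243 in batch B, a ratio of 1.46. The sum over IRS1 and IRS2 had ratios of 1.11 in A and 1.12 in B. The sum over AKT1 and AKT2 had ratios of 1.12 in A and 1.37 in B, so that the batches differed more; this difference was not tested.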
